A study of Rattus norvegicus with 56 samples.

Results

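The cortical thick ascending limb (cTAL) was examined 30 min after a ureter was tied. The 8 cTAL libraries taken at 30 min were chosen by their labels out of 56 samples in the series. They are 4 UUO libraries (unilateral ureteral obstruction, left ureter ligated) and 4 sham libraries, from rats operated on in the same way without ligation. All were dissected by hand from kidneys of male Sprague-Dawley rats weighing 120 to 160 g. Ages were not given. Set beside them were 16 libraries of the cortical collecting duct (CCD) at 30 min, 2 for each numbered replicate, and 8 cTAL libraries at 3 h. The labels number the replicates 1 to 4 in each arm but do not state which libraries came from 1 animal, so the spread between them may be partly technical. Values are TPM, transcripts scaled to a common total in each library, which hold no record of sequencing depth. A change is the mean log2(TPM + 1) of the 4 UUO libraries minus that of the 4 sham libraries. A gene was called when its Benjamini-Hochberg adjusted p from limma, over the 10993 genes tested, was under 0.05.

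The thick ascending limb reabsorbs salt without water. The apical cotransporter NKCC2 (Slc12a1) takes up sodium, potassium and chloride, the channel ROMK (Kcnj1) returns potassium to the lumen, and chloride leaves at the basolateral side through channels that need the subunit barttin (Bsnd). The positive lumen that results drives calcium and magnesium through tight junctions built by claudins. Ureteral obstruction raises the pressure inside the tubules upstream, and salt reabsorption in this segment is known to fall when obstruction lasts.

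One locus was called at 30 min and it was higher in UUO. AABR07007730.1 (ENSRNOG00000018045) is a clone-based name, and no role is annotated for it in the tables used. It stood at 18.7, 25.1, 21.1 and 19.8 TPM in UUO replicates 1 to 4 and was listed at 0 in all 4 sham libraries. The arms did not overlap, and limma's adjusted p was 6.5e-06. The locus passed the filter on low values, at least 1 TPM in 4 of 8 libraries, through its UUO libraries alone. No fold is given against libraries listed at 0. In the CCD at 30 min the same locus lay between 18.5 and 43.7 TPM in the 8 UUO libraries and between 0 and 0.70 TPM in the 8 sham libraries, 5 of which were listed at 0. At 3 h it was listed at 0 in 3 of 4 UUO cTAL libraries and in all 4 sham ones. The exception was cTAL UUO replicate 4 with 14.5 TPM, and both CCD libraries of UUO replicate 4 at 3 h held it as well, with 10.6 and 12.8 TPM. The locus was thus present in both segments of every numbered UUO replicate at 30 min, and above 2 TPM at 3 h in the libraries of a single UUO number.

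**Figure D1:**
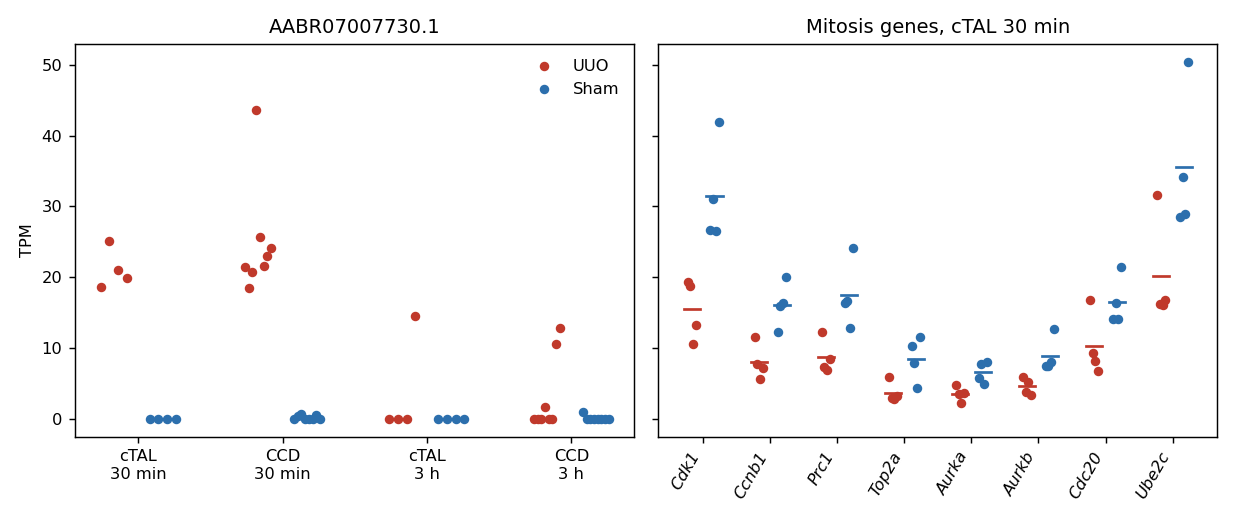
TPM of AABR07007730.1 in every cTAL and CCD library at 30 min and 3 h (left) and of 8 mitosis genes in the cTAL libraries at 30 min (right), with UUO in red left of sham in blue; each point is a library and short bars are means of 4. The locus is at 18.5 TPM or more in every UUO library at 30 min and at or under 0.70 TPM in every sham library at that time, and the mitosis genes lie lower in UUO for all 8 means.

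That single call was 0.0091% of the genes tested. No gene was called lower. Without adjustment, limma gave a p under 0.05 for 56 higher genes (0.509%) and 194 lower genes (1.76%), 250 in all. The arms did not overlap for 35 higher genes (0.318%) and 154 lower genes (1.40%). The median change over all genes was -0.07, and rescaling each library by median of ratios moved it to 0.01 and the unadjusted split to 106 higher and 113 lower genes. A gene's 95% interval reached a median of 0.51 to either side of its change on the log2 scale, so changes of modest size were not resolved with 4 libraries an arm.

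The libraries held thick ascending limb RNA. The 8 marker genes of the segment summed to between 41864 and 65281 TPM in UUO and between 44507 and 74943 TPM in sham libraries, against at most 568 TPM in the CCD sham replicates. Nos1, which marks the macula densa cells at the end of the segment, averaged 0.025 TPM in UUO and 0.060 TPM in sham libraries, while Ptgs2, its other classic marker, varied from 0.22 to 112 TPM in UUO and from 4.84 to 131 TPM in sham libraries. Genes at 1 TPM or more numbered 10472 to 11160 in UUO and 10902 to 11106 in sham libraries. Mitochondrially encoded transcripts took 21.6% to 28.5% of all TPM in the UUO libraries and 20.5% to 26.2% in the sham libraries (two-sided exact permutation p = 0.400, where the smallest p possible with 4 against 4 is 0.0286). Correlations between libraries on the log2 scale had medians of 0.942 for UUO replicate 1 and 0.944 for UUO replicate 4, against 0.952 or more for each of the other 6. The lowest, 0.917, was between UUO replicate 1 and sham replicate 4. UUO replicate 1 also differed in other cell types' transcripts, as its proximal tubule markers summed to 3192 TPM and its red cell transcripts to 3516 TPM, against at most 1704 and 867 TPM in any other library.

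Genes of salt transport showed no called change. Umod, which encodes uromodulin, the main secreted protein of the segment, stood at 36458, 53836, 56259 and 49601 TPM in UUO replicates 1 to 4, against 56901, 47797, 37664 and 66397 TPM in sham replicates 1 to 4. Slc12a1 had 2015, 1976, 3152 and 2972 TPM in UUO and 3982, 2187, 2471 and 2686 TPM in sham libraries. Both genes overlapped between arms, with changes of -0.08 (95% interval -0.52 to 0.36) and -0.16 (-0.65 to 0.34). Exact permutation tests gave p = 0.714 for Umod and p = 0.571 for Slc12a1.

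Kcnj1 averaged 1126 TPM in UUO and 1263 TPM in sham libraries, a change of -0.15 (-0.47 to 0.17). Bsnd, which encodes barttin, had 110, 165, 171 and 144 TPM in UUO replicates 1 to 4, against 193, 164, 200 and 225 TPM in sham replicates 1 to 4. Its change of -0.41 (-0.78 to -0.05) had the smallest p of the transport list but overlapped between arms and missed the threshold (limma adjusted p = 1.00).

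The claudins that set the paracellular path overlapped between arms. Cldn16 and Cldn19, which together form the path for magnesium and calcium, had changes of -0.05 (-0.52 to 0.42) and -0.01 (-0.51 to 0.49). Neither was called, and both were above 0 after median-of-ratios rescaling (0.03 and 0.07), as was Umod (0.01). Cldn10, which forms the sodium path, had a change of 0.10 (-0.15 to 0.34) with means of 1169 TPM in UUO libraries and 1089 TPM in sham libraries. Egf, the growth factor made in this segment and the neighbouring distal tubule, averaged 3982 TPM in UUO and 4515 TPM in sham, a change of -0.15 (-0.72 to 0.43). The WNK kinases sit above NKCC2 in its control. Wnk1 ranged from 23.7 to 66.8 TPM in UUO and from 32.1 to 94.7 TPM in sham libraries.

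Of 32 genes listed for thick ascending limb transport, 27 passed the filter on low values, none was called by limma, and 1 had an unadjusted p under 0.05. Their median change was -0.08, beside -0.07 over all genes tested. Of 30 hormone receptors and regulators of the segment, 20 passed the filter and none was called, with 1 at an unadjusted p under 0.05 and a median of -0.06. Casr, the calcium-sensing receptor that lowers salt uptake, had 230, 254, 503 and 438 TPM in UUO replicates 1 to 4, against 583, 304, 390 and 429 TPM in sham replicates 1 to 4. Avpr2, the vasopressin V2 receptor, ranged from 35.3 to 56.1 TPM in UUO and from 39.5 to 49.8 TPM in sham libraries. Ptger3, the prostaglandin E2 receptor EP3, ranged from 8.69 to 107 TPM in UUO and from 9.63 to 28.3 TPM in sham, its UUO values spread mainly by replicate 4.

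**Figure D2:**
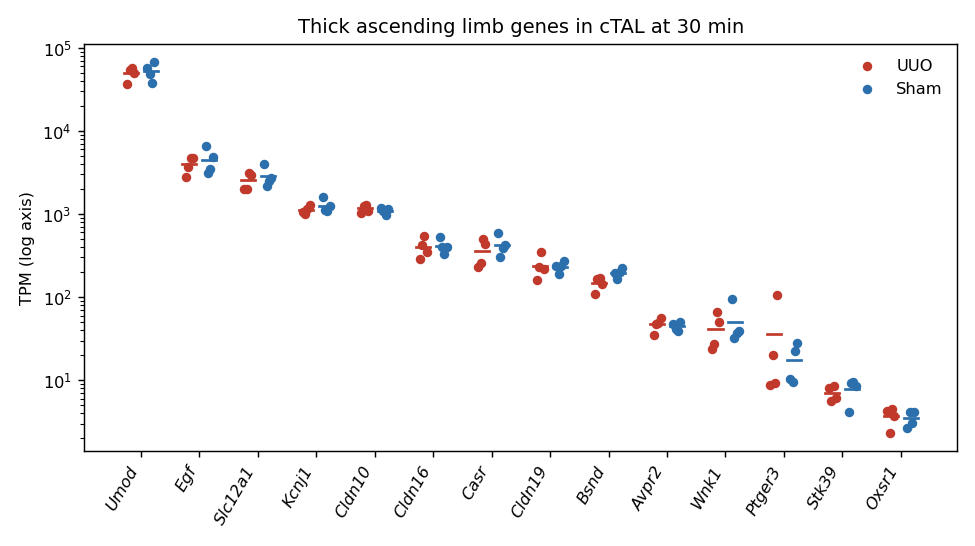
TPM on a log axis of 14 genes of salt transport, hormone control and secretion in the 8 cTAL libraries at 30 min, with UUO in red left of sham in blue; each point is a library and bars are means of 4. Points of both arms overlap for every gene shown, from Umod, the most abundant, to Oxsr1, the least.

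Immediate early genes are transcribed within minutes of a stimulus without new protein synthesis, and many encode transcription factors such as Fos and Egr1 or feedback inhibitors of signalling. Fos is a subunit of AP-1. It stood at 185, 242, 246 and 546 TPM in UUO replicates 1 to 4, against 52.5, 19.7, 54.7 and 87.4 TPM in sham replicates 1 to 4. Every UUO library was above every sham library, the lowest UUO value being over the highest sham value. The change was 2.53 (SE 0.46, 95% interval 1.5 to 3.56), but with the adjustment over all genes it was not called (limma adjusted p = 0.633).

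Egr1, a zinc finger factor induced by serum and stretch in many cells, had 14.3, 49.6, 45.6 and 93.5 TPM in UUO replicates 1 to 4 and 6.79, 5.98, 24.0 and 12.9 TPM in sham replicates 1 to 4. The arms overlapped in that UUO replicate 1 lay below sham replicate 3, and the change of 1.87 (0.58 to 3.17) was not called. Atf3, a stress-induced factor of the same superfamily as Fos, had 10.8, 38.5, 41.4 and 217 TPM in UUO and 3.85, 2.49, 29.9 and 23.1 TPM in sham libraries. Its change of 2.11 (-0.06 to 4.27) rested on a wide spread within both arms. Jun averaged 25.2 TPM in UUO and 7.46 TPM in sham, a change of 1.09 (-0.63 to 2.81), and Junb had a change of 0.92 (-0.74 to 2.58). Myc, which was at 0.43 to 1.68 TPM in UUO and at 0.10 to 2.22 TPM in sham libraries, had a change of -0.02 (-0.83 to 0.78).

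Genes that end or limit such signals had changes on the same side. Dusp1, a phosphatase that switches off MAP kinases, had 5.93, 14.5, 17.1 and 35.1 TPM in UUO replicates 1 to 4 and 5.06, 2.89, 3.44 and 12.1 TPM in sham replicates 1 to 4, a change of 1.42 (0.23 to 2.61). Zfp36, which promotes decay of short-lived mRNAs, had 105, 140, 210 and 392.5 TPM in UUO and 91.6, 77.9, 41.3 and 139 TPM in sham libraries, a change of 1.21 (0.19 to 2.23). Neither was called, and in both UUO replicate 4 was the highest library. Btg2, an antiproliferative gene, averaged 198 TPM in UUO and 65.2 TPM in sham libraries, a change of 1.42 (-0.06 to 2.89).

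The promoters of Egr1 and Dusp1 are shown because these genes are known targets of the serum response factor, which binds the CArG box, and of CREB, which binds the cyclic AMP response element. Sequences are from RefSeq on build GRCr8, 250 bases before to 50 after the start, 5′ to 3′ on the gene's strand. Egr1 lies at chr18:26736828-26737127 on the + strand and Dusp1 at chr10:17184603-17184902 on the + strand. Capitals mark matches on either strand to the CArG box, to the response element TGACGTCA, to the shorter site TGACG, which is also part of the full element, and to the AP-1 site TGANTCA.
Egr1: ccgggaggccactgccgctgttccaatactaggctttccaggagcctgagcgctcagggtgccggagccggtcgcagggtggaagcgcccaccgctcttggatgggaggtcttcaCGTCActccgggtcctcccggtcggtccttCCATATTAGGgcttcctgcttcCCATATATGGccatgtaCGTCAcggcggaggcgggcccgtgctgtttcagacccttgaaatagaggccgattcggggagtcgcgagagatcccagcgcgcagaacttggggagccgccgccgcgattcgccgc
Dusp1: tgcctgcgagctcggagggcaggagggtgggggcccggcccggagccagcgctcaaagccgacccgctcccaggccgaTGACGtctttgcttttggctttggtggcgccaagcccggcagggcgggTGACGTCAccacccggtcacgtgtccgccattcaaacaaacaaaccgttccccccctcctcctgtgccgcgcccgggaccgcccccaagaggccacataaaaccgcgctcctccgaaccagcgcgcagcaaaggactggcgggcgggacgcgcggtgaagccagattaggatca
Egr1 held 2 CArG boxes, starting 105 and 83 bases before the start, and 2 short sites. Dusp1 held 1 full element, which was counted as short sites on both strands, and 1 further short site. Among all 33469 promoters of that length in the table, 1.64% held a CArG box, 1.83% the full element, 21.2% a short site and 7.33% the AP-1 site. In all, 10 promoters of early and YAP target genes were scanned. A CArG box was found in 2 of them (Egr1 and Zfp36), the full element in 3 (Dusp1, Btg2 and Ier2), a short site in 7 and the AP-1 site in 0. The promoters of Ccn2 and Fosb held no match to any of these. These matches describe the letters only.

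Of 12 AP-1 factors listed, 6 passed the filter, and the change of all 6 was above 0 with a median of 1.00. Of 31 other immediate early genes, 19 passed, 17 of them above 0 with a median of 0.36. Together 23 of 25 were above 0, where 34.1% of all genes were, and none was called. An unadjusted limma p under 0.05 was found for 4, all higher in UUO, where 0.509% of all genes had one in that direction. Fos was the sole gene of the 25 whose arms did not overlap, where 0.318% of all genes were higher in UUO without overlap. Of 17 MAP kinase feedback genes 11 passed, 10 of them above 0 with a median of 0.33. The UUO libraries did not contribute alike. UUO replicate 4 was the highest of the 8 libraries for 13 of the 25 early genes, and UUO replicate 1 was the lowest UUO library for 21 of the 25. Without UUO replicate 1 the median was 1.51 for the AP-1 factors and 0.70 for the other early genes. Medians without UUO replicate 4 were not computed. With any 1 library left out, the change ranged from 2.12 to 2.82 for Fos and from 1.49 to 2.37 for Egr1. The range was 1.35 to 2.75 for Atf3 and 0.37 to 1.70 for Jun.

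Among genes that answer to mechanical load through YAP, Ccn2, a matricellular growth factor, had 3.10, 19.2, 33.0 and 58.7 TPM in UUO replicates 1 to 4 and 7.28, 2.80, 2.22 and 6.73 TPM in sham replicates 1 to 4. Its change was 1.94 (0.26 to 3.62), and its relative Ccn1 had a change of 1.65 (0.34 to 2.97). Neither was called, and in both UUO replicate 1 lay within the sham range. Of 18 YAP targets 11 passed the filter, 7 of them above 0, with a median of 0.23. Ccl2, a monocyte chemoattractant, had 3.91, 11.3, 16.3 and 1.44 TPM in UUO and 1.57, 0, 1.52 and 2.65 TPM in sham libraries and was not called.

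Injury markers were at low or overlapping levels. Havcr1 (KIM-1) was at 0.26 TPM or less in all 8 libraries and was not tested. Lcn2 (NGAL) ranged from 0.30 to 5.72 TPM in UUO and from 1.76 to 4.38 TPM in sham libraries. Tnfrsf12a, the receptor of the cytokine TWEAK, had 22.4, 39.2, 22.7 and 57.9 TPM in UUO replicates 1 to 4 and 27.1, 23.6, 95.9 and 30.7 TPM in sham replicates 1 to 4. Of 28 injury markers 24 passed the filter, none was called by limma or had an unadjusted p under 0.05, and the median change was -0.03. NRF2 targets, the unfolded protein response, hypoxia and glycolysis, and TGF-beta and matrix genes likewise had no called member and no member at an unadjusted p under 0.05, with medians from -0.11 to 0.03.

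**Figure D3:**
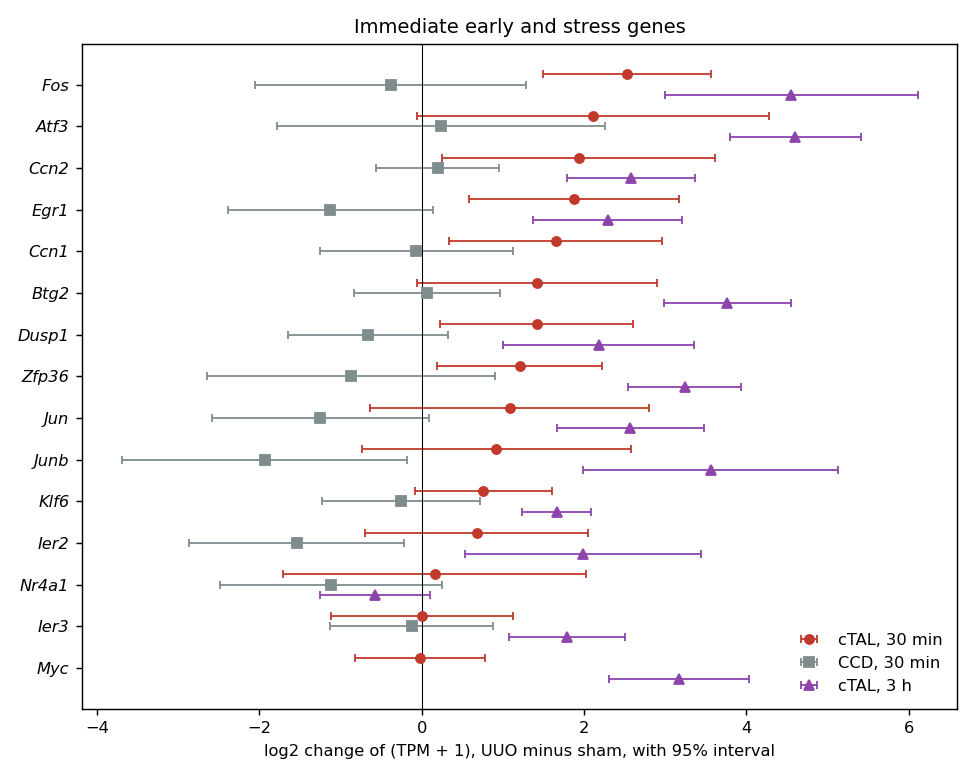
Change of log2(TPM + 1), UUO minus sham, with 95% intervals from limma for 15 immediate early and stress genes in cTAL at 30 min (red circles), CCD at 30 min (grey squares) and cTAL at 3 h (purple triangles; Ccn1 was not tested there, nor Myc in CCD). Fos is at 2.53 in cTAL at 30 min, -0.39 in CCD at 30 min and 4.55 in cTAL at 3 h.

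Genes of mitosis had lower means in UUO libraries, and none was called. The list was added after these values had been seen, so its counts are a description with no test. Cdk1, the kinase that starts mitosis, had 19.3, 18.7, 10.6 and 13.3 TPM in UUO replicates 1 to 4 and 26.7, 31.0, 26.5 and 41.9 TPM in sham replicates 1 to 4. The arms did not overlap, with a change of -0.99 (-1.51 to -0.48) that was not called. Its partner cyclin B1, Ccnb1, had 11.5, 7.76, 5.64 and 7.22 TPM in UUO and 12.3, 15.9, 16.4 and 19.99 TPM in sham libraries, a change of -0.94 (SE 0.23). Prc1, which bundles microtubules at the midzone of the spindle, averaged 8.78 TPM in UUO and 17.5 TPM in sham libraries.

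Of 42 genes of the G2 and M phases that passed the filter, 40 had a change below 0, with a median of -0.52, beside 65.9% of all genes below 0 and a median of -0.07. The arms did not overlap for 7, all lower in UUO, where 1.40% of all genes were. An unadjusted p under 0.05 was found for 17, where 1.76% of all genes had one with a lower value in UUO, and none was called. Of 35 S-phase genes 33 were below 0, with a median of -0.30. Sham replicate 4 was the highest library for 33 of the 42 G2 and M genes, and 17 of them averaged under 5 TPM in sham. Their median was -0.44 after median-of-ratios rescaling and -0.67 without UUO replicate 1, and it was not computed without sham replicate 4. With any 1 cTAL library left out, the change ranged from -1.11 to -0.84 for Cdk1. The range was -1.11 to -0.81 for Ccnb1 and -1.07 to -0.76 for Prc1. In the CCD at 30 min the median of the G2 and M genes was -0.28, where the median over genes was -0.31. Whether fewer cycling cells or less of these RNAs per cell lay behind such values cannot be told apart in bulk libraries, here or for any other gene.

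Chaperones and splicing factors had few genes whose arms did not overlap, 1 of 20 heat shock genes and 2 of 26 splicing factors tested, all lower in UUO, where 1.40% of all genes were. Hsph1, a partner of Hsp70, had 20.3, 25.9, 29.2 and 29.9 TPM in UUO replicates 1 to 4 and 30.9, 41.9, 34.4 and 36.5 TPM in sham replicates 1 to 4. Tra2b and Srsf3, which promote inclusion of exons, had changes of -0.48 (-0.79 to -0.18) and -0.41 (-0.70 to -0.13) with no overlap between arms. None of the 3 was called. Of the 26 splicing factors tested of 28 listed, 20 were below 0 with a median of -0.15, and of the 20 heat shock genes tested of 22 listed 15 were, with a median of -0.13. Over all genes 65.9% were below 0 with a median of -0.07. Hspa1b, an inducible Hsp70, ranged from 1.87 to 10.3 TPM in UUO and from 1.74 to 6.18 TPM in sham libraries.

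Some transcripts typical of the collecting duct had higher means in UUO cTAL libraries, at levels far below those of the CCD. None was called in the fit of the 8 libraries. Rhcg, an ammonia channel of the distal nephron, had 4.94, 7.02, 2.95 and 7.22 TPM in UUO replicates 1 to 4 and 0.08, 0.22, 1.44 and 0.03 TPM in sham replicates 1 to 4. The arms did not overlap, and the change of 2.22 (1.44 to 2.99) missed the threshold (limma adjusted p = 0.318). It was called in the fit that shares its spread with the CCD libraries (limma adjusted p = 0.0101). There Rhcg averaged 1135 TPM in UUO and 1292 TPM in sham replicates, each a mean of 2 libraries. Its SE was 0.24 in CCD and 0.34 in cTAL, so that smaller p leans in part on a spread from unlike levels. The fit with CCD also holds more replicates, and what each of these added to the smaller p was not tested. The uncharacterised locus LOC100910650 behaved likewise. UUO replicates 1 to 4 had 4.42, 10.98, 2.43 and 4.48 TPM, whereas sham replicates 1 to 4 had 0, 0, 0.66 and 0 TPM. Limma's adjusted p was 0.318 and, with the CCD libraries, 0.00486. This locus reached 1 TPM in its UUO libraries alone, so the filter on low values bears on its direction. Its CCD replicates averaged 772 TPM for UUO and 611 TPM for sham, so its smaller p also leans in part on a spread from unlike levels.

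Aqp2, the vasopressin-regulated water channel, had 5.34, 15.4, 2.37 and 6.48 TPM in UUO replicates 1 to 4 and 0.11, 0.17, 1.88 and 0.55 TPM in sham replicates 1 to 4. Aqp3, the basolateral water channel of the same cells, had 14.7, 6.34, 1.85 and 2.82 TPM in UUO and 0.18, 0.28, 0.29 and 0.04 TPM in sham libraries. For both, every UUO library was above every sham library, and neither was called. Scnn1g, a subunit of the epithelial sodium channel, was at 1.06 to 2.25 TPM in UUO and 0.04 to 0.15 TPM in sham libraries.

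In relation to the mean of the CCD sham replicates, Aqp2 was at 0.151% of that level in UUO cTAL and 0.0139% in sham cTAL, and Rhcg at 0.428% in UUO cTAL and 0.0343% in sham cTAL. Of the 8 principal cell markers 6 passed the filter on low values. Aqp3 and Scnn1g passed it through their 4 UUO libraries alone, and Aqp2 and Rhcg reached 1 TPM in 4 UUO libraries and 1 sham library, so the filter bears on the direction of these genes and no count over the list is read. The summed level of the list ranged from 84.1 to 118 TPM in UUO and from 56.7 to 114 TPM in sham libraries (exact permutation p = 0.343), a sum carried by genes that cTAL libraries of both arms hold, such as Avpr2. The intercalated cell list had 5 of 9 members past the filter, 3 with a change above 0 and 2 below. Those below 0 were Atp6v0d2 and Atp6v1b1, which reached 1 TPM in 4 libraries of each arm, and the lowest change of the list was -0.05. The list summed to between 154 and 356 TPM in UUO and between 176 and 276 TPM in sham libraries. The change of that sum was 0.09 (exact permutation p = 0.800). The part that neighbouring tubule in the dissected pieces had in these values was not tested.

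**Figure D4:**
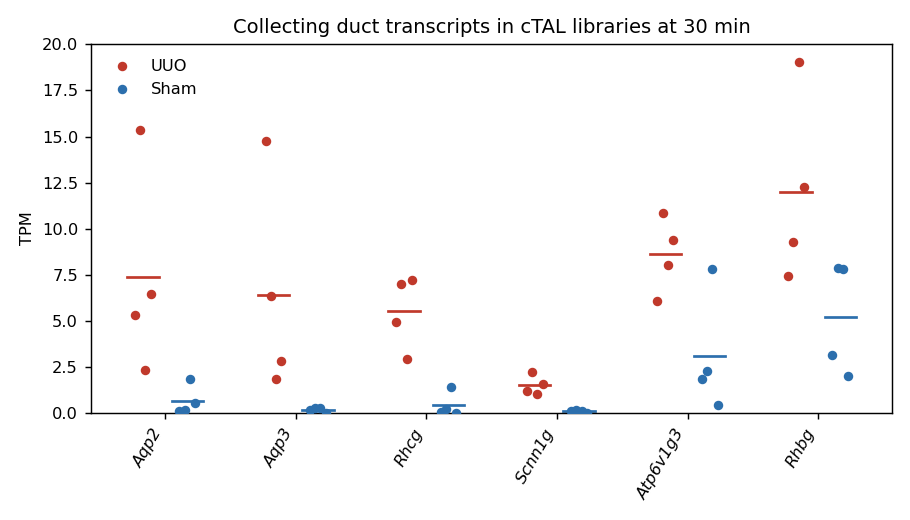
TPM of 6 collecting duct transcripts in the 8 cTAL libraries at 30 min, with UUO in red left of sham in blue; each point is a library and bars are means of 4. Rhcg, Aqp2, Aqp3 and Scnn1g have every UUO library above every sham library, at levels of 15.4 TPM or less. Tested markers not shown are Avpr2, Hsd11b2 and Scnn1b of principal cells, and Atp6v0d2 and Atp6v1b1 of intercalated cells, which had changes below 0.

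Summed markers of other cell types overlapped between arms. Fibroblast and pericyte markers summed to 105, 19.9, 107 and 11.5 TPM in UUO replicates 1 to 4 and to 18.9, 7.99, 13.0 and 18.6 TPM in sham replicates 1 to 4, a change of 1.48 (exact permutation p = 0.200). Dcn, which encodes the matrix proteoglycan decorin, had 71.3, 13.2, 93.2 and 3.18 TPM in UUO and 4.25, 3.79, 8.08 and 8.69 TPM in sham libraries and was not called, so UUO replicates 1 and 3 were the high ones. Proximal tubule markers had all 8 tested members above 0 with a median of 1.02, but 0.19 without UUO replicate 1. Red cell transcripts summed to 552 to 3516 TPM in UUO and 10.4 to 867 TPM in sham libraries (exact permutation p = 0.171). Tagln, a smooth muscle gene, had 17.6, 13.0, 15.99 and 10.3 TPM in UUO and 12.2, 4.46, 2.62 and 4.21 TPM in sham libraries and was not called. The smooth muscle markers summed to 11.2 to 21.0 TPM in UUO and 3.22 to 14.1 TPM in sham libraries (exact permutation p = 0.0571). Macrophage markers summed to 1265 to 2082 TPM in UUO and 926 to 2060 TPM in sham libraries, and neutrophil markers to at most 3.06 TPM in any library.

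Core clock genes varied widely within both arms. Arntl (BMAL1), the activator of the clock, had 0.18, 5.81, 0.19 and 6.58 TPM in UUO replicates 1 to 4 and 5.59, 0, 4.50 and 0.25 TPM in sham replicates 1 to 4. Each arm thus held 2 libraries above 4 TPM and 2 at 0.25 TPM or less. Ciart, a repressor of the clock, had 6.36, 0, 19.0 and 1.62 TPM in UUO and 0.10, 24.3, 0.90 and 25.2 TPM in sham libraries. It was high where Arntl was low. Per3, a period gene, had 8.91, 0.66, 16.4 and 3.93 TPM in UUO and 4.53, 17.8, 6.25 and 22.5 TPM in sham libraries.

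CCD Arntl, as the mean of the 2 libraries of a number, was at 2.16, 7.26, 1.40 and 9.15 TPM in UUO replicates 1 to 4 and at 15.2, 1.97, 13.8 and 2.83 TPM in sham replicates 1 to 4. The numbers with the higher values were the same in both segments. None of the 17 clock genes tested was called between UUO and sham or had an unadjusted p under 0.05, and their 95% intervals reached a median of 1.32 to either side, beside 0.51 for all genes. The labels used here give no hour of sampling.

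**Figure D5:**
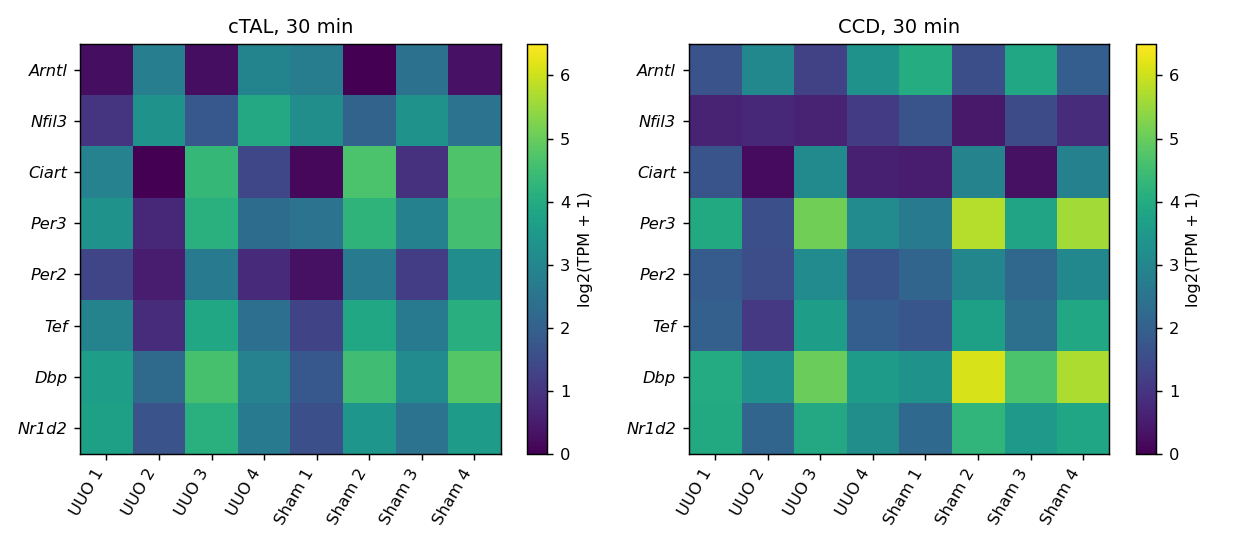
Level of 8 clock genes as log2(TPM + 1) in each replicate of cTAL (left) and CCD (right) at 30 min, UUO replicates left of sham replicates; CCD squares are means of the 2 libraries of a number. Arntl is high and Ciart low in UUO 2, UUO 4, sham 1 and sham 3 in both segments, and the reverse holds in the other 4.

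The next comparison asked whether the cTAL answered differently from the CCD at the same time. In CCD at 30 min, 3 of 11274 genes were called (0.0266%), 1 of them, AABR07007730.1, higher. The difference between segments, the cTAL change minus the CCD change, had no called gene (0%) in limma's fit with 4 group means, with 650 genes at an unadjusted p under 0.05 (5.91%), of which 607 had the cTAL change above the CCD change. That fit ignores replicate numbers. An alternative fit took them to pair the segments, since deviations of cTAL and CCD libraries with the same number correlated by 0.13 to 0.59 in all 8 pairs. Correlations between unlike numbers were not computed, and the labels state no shared animal. Within numbers, 92 genes were called (0.837%), all with the cTAL change above. That count was 0 after median-of-ratios rescaling or quantile normalization, 1 with a pseudocount of 0.1, and 0 without UUO replicate 1 or 4 or any 1 of the sham replicates. It was 28 without UUO replicate 2 and 697 without UUO replicate 3.

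Of the 25 early genes tested in cTAL, 23 were tested in CCD, 21 of them with a change below 0 there. That share was near the background, since 86.5% of the 10252 genes tested in both segments were below 0 in CCD. CCD Fos was at 1510, 161, 828 and 740 TPM in UUO replicates 1 to 4 and at 223, 1183, 1337 and 1124 TPM in sham replicates 1 to 4, so its level in CCD was above that in cTAL in most replicates of both arms. No early gene was called in the difference between segments, with or without the pairing by number. Rhcg had a cTAL change of 2.22 and a CCD change of -0.31. Its difference of 2.53 was not called (limma adjusted p = 0.377 within numbers and 0.366 without the pairing).

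The last comparison set the cTAL at 30 min beside the cTAL at 3 h, which came from other libraries with their own sham controls. At 3 h, 407 genes were called higher (4.06%) and 766 lower (7.64%). The 30 min change differed from the 3 h change for 237 genes (2.16%), 150 with the 30 min change above and 87 below. That count was 129 without sham replicate 2 and 107 without sham replicate 3 of the 30 min set.

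The genes with the smallest p for this difference mostly overlapped between arms at 30 min, Srsf3 being an exception. Upp1, which breaks down uridine, ranged from 13.0 to 17.9 TPM in UUO and from 14.4 to 23.7 TPM in sham libraries at 30 min. At 3 h it was at 196 to 325 TPM in UUO and 24.5 to 29.0 TPM in sham libraries, and the 30 min change minus the 3 h change was -3.56 (limma adjusted p = 1.71e-06). Mt1, a metallothionein that binds zinc, had a change of 0.16 at 30 min and 3.63 at 3 h. Csrp1, an actin-associated LIM protein, had a change of -0.16 at 30 min and 1.98 at 3 h, and Srsf3 of -0.41 at 30 min and 1.10 at 3 h. The difference between times was called for all 4.

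Tnfrsf12a had a change of -0.17 at 30 min and 4.31 at 3 h, and Myc of -0.02 and 3.17, and both differences were called. Kcnj1 and Avpr2 were called with the 30 min change above the 3 h change. Kcnj1 had a change of -0.15 at 30 min and -1.01 at 3 h, and Avpr2 of 0.06 and -1.51, with differences of 0.86 (limma adjusted p = 0.0235) and 1.57 (limma adjusted p = 0.00222). Lrrc66, a leucine-rich repeat gene, had a change of -0.09 at 30 min and -3.18 at 3 h. Casr had a change of -0.30 at 30 min and -1.18 at 3 h, and its difference between times was not called (limma adjusted p = 0.302).

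Of 24 early genes tested at both times, 21 had a change above 0 at 3 h, where 39.2% of all genes tested at both times did, and 19 were above 0 at both. At 3 h 14 of them were called higher, beside 4.06% of all genes, and 19 had the larger change at 3 h. Fos in cTAL at 3 h was at 182, 76.8, 81.7 and 333 TPM in UUO replicates 1 to 4 and at 2.10, 26.1, 2.30 and 3.66 TPM in sham replicates 1 to 4, a change of 4.55. Its 30 min change of 2.53 was not shown to differ from that (limma adjusted p = 0.292), nor was that of Egr1 (limma adjusted p = 0.850).

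Over all genes called higher at 3 h, 357 were tested at 30 min, 58.5% of them above 0 with a median of 0.07, where 34.1% of all genes tested were above 0. For the 108 of these with a 3 h change of 2 or more, 77.8% were above 0 at 30 min with a median of 0.41. Of the 108, 1 had no overlap between arms in that direction, where 0.318% of all genes tested had none. For the 757 called lower at 3 h and tested at 30 min, 71.5% were below 0 with a median of -0.06, beside 65.9% of all genes. These shares describe genes chosen by their 3 h values. Among the 8 proximal tubule markers tested, 5 were called higher at 3 h, beside 4.06% of all genes. Those markers had medians of 2.62 at 3 h and 1.02 at 30 min, the latter 0.19 without UUO replicate 1. The part that proximal tubule transcripts had in the shares was not tested.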

How the data were processed

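RNA of dissected tubules was made into cDNA with SMARTer V4 and libraries with Nextera XT, from 1 ng over 15 PCR cycles, per the labels' protocols. The tools credited here to the submitters' processing notes are RSEM 1.3.3 and STAR 2.7.3, and the genome build is Rnor_6.0. The authors deposited TPM per gene in a separate file for each time. TPM keep no depth, and strandedness is not given in the sources used here, so antisense partners cannot be told apart. Each file was normalized separately, so levels are set side by side but tested only as changes within a file.

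Genes with at least 1 TPM in 4 of 8 replicates were tested on log2(TPM + 1), a scale that understates changes of low genes, with limma 3.58.1 (mean-variance trend) in R 4.3.3 with the data.table package at version 1.17.8. CCD values were means of both libraries sharing a number, on the log2 scale. Segment and time differences were contrasts of 4 group means. Single values used two-sided exact permutation over 70 splits. The fits were run on simulated data with independent noise for each value. That setting is simpler than these libraries, and no result is drawn from it. Named genes were the largest called changes, the 10 smallest p per direction at 5 TPM or more, the best member of each list, a fixed set, and the 5 smallest p per direction of each difference; cell cycle genes, collecting duct genes beyond these, clock genes and some early genes were named after their values were seen. Members, lists and tests were chosen with earlier results of these data known. Of 785 listed symbols 752 were matched, and the rest were not analysed here. Some named genes are not reported here. The 8 whole-kidney samples were not analysed here. Deviations of same-numbered cTAL and CCD libraries correlated by 0.13 to 0.59, so an alternative fit took numbers as pairs across segments. Figures used matplotlib 3.10.9 under Python 3.11.15.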

Additional observations from a re-analysis of the deposited data

Results flagged for a closer look

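Within an arm of 4, a library whose gap to the next exceeds Dixon's 95% critical share of the arm's range is named here. It was found in 9 of 206 arms checked over the named genes and marker sums on the log2 scale, where chance gives about 1 in 20. UUO replicate 1 was the highest UUO library for Aqp1, a water channel of proximal tubule and thin limb, at 11.3 TPM, and for LOC100361933 at 1.54 TPM, where the other 3 were listed at 0. UUO replicate 2 was highest for AABR07004404.1 at 11.6 TPM, and UUO replicate 3 for the sum of macrophage markers at 2082 TPM. Among sham libraries, replicate 3 was highest for LOC100910650 at 0.66 TPM and for Csrp1 at 372 TPM. Sham replicate 1 was highest for Yme1l1, a mitochondrial protease, at 11.8 TPM and for the sum of distal convoluted tubule markers at 94.98 TPM. Sham replicate 4 was highest for the sum of endothelial markers at 170 TPM.

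For 19 of the named genes the change differed between 30 min and 3 h by limma's test of the difference. Some of these were named because their p in that same test was among the smallest, and others for their 30 min p. Their number is therefore set in part by that choice and is not a rate. Over all genes tested, 2.16% were called for this difference. The difference is given as the 30 min change minus the 3 h change. It was below 0 for the following genes. Tnfrsf12a was at -4.48, Upp1 at -3.56, Mt1 at -3.47, Hspa1b at -3.30 and Myc at -3.19. LOC100361933 was at -2.91, Csrp1 at -2.14, Plek2 at -1.82, Srsf3 at -1.51 and Tra2b at -1.11. At 3 h LOC100361933 was listed at 0 in every cTAL library but UUO replicate 3, with 3.86 TPM, and did not pass the filter there. At 30 min this locus passed the filter mainly through its sham libraries, so the filter bears on the direction of its difference. Eif4a1, a helicase of translation initiation, was at -0.98 and LOC103693375 at -0.86. It was above 0 for Lrrc66 at 3.09, Prmt2 at 1.80, AABR07025051.4 at 1.71, Mrpl36, a protein of the mitochondrial ribosome, at 1.64, Avpr2 at 1.57, Acot13 at 0.96 and Kcnj1 at 0.86.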

How the results depend on the processing

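With 4 libraries an arm, unknown depth and 95% intervals reaching a median of 0.51 to either side, changes of modest size were not resolved. The single call at 30 min was AABR07007730.1 under 17 of 18 alternatives, including the replicate block (1 gene called) and each library left out (1 to 1 genes). The fit sharing its spread with CCD called 3 genes, adding Rhcg at 2.22 and LOC100910650 at 2.38. Both genes stood far higher in CCD, so the spread in that fit came in part from levels unlike those in cTAL. Deviations of same-numbered UUO and sham cTAL libraries correlated by -0.11, -0.20, -0.23 and 0.18, so their numbers were not taken to pair the arms. The difference between segments had 0 genes called without any 1 library, 1 with a pseudocount of 0.1 and 92 with the replicate block. The difference between times had 107 to 217 genes called without a library and 71 with the replicate block. The causes were not tested.

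Of 1504 values of 85 named genes, 1459 kept direction and side of the threshold and 43 reversed, in 16 genes whose changes were 0.36 or smaller in size. Median-of-ratios rescaling gave Umod 0.0085, Cldn16 0.035, Cldn19 0.073, Myc 0.0090 and the sum of thin limb markers 0.012. Quantile normalization gave Cldn19 0.013, and rescaling without mitochondrially encoded genes and Umod gave Cldn19 0.013 and Myc 0.0043. A pseudocount of 0.1 gave Myc 0.17 and Podxl -0.028. Without a library, the range was -0.51 to 0.099 for Wnk1, -0.31 to 0.054 for Egf, -0.28 to 0.035 for Upk1a, -0.19 to 0.22 for Podxl, -0.22 to 0.058 for Umod, -0.27 to 0.019 for Slc12a1, -0.21 to 0.091 for Cldn16, -0.22 to 0.16 for Cldn19, -0.41 to 0.75 for Ptger3, -0.024 to 0.19 for Avpr2, -0.36 to 0.17 for Myc, -0.44 to 0.27 for Tnfrsf12a, -0.57 to 0.091 for Hspa1b, -0.27 to 0.21 for Lrrc66, -0.029 to 0.16 for Prmt2 and -0.075 to 0.52 for Mt1.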

Other observations

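Among genes outside the lists, LOC100361933 had 1.54, 0, 0 and 0 TPM in UUO replicates 1 to 4 and 5.15, 3.13, 5.29 and 9.57 TPM in sham replicates 1 to 4 (limma adjusted p = 0.370). This locus reached 1 TPM in every sham library but only in UUO replicate 1, so the filter on low values bears on its direction. Yme1l1 had 0, 1.81, 2.25 and 0 TPM in UUO and 11.8, 4.37, 4.91 and 5.14 TPM in sham libraries, a change of -2.02 that was not called. Fam149a ranged from 13.7 to 23.7 TPM in UUO and from 5.98 to 13.5 TPM in sham libraries and was not called. In each of these genes the arms did not overlap.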
